A study of Mus musculus with 36 samples.

Results

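A set of 7 genes of extracellular proteolysis (of the 26709 genes in the RNA table) were followed in silenced and stimulated mouse cortical neurons: the plasminogen activators Plat and Plau, the urokinase receptor Plaur, the metalloprotease Adamts1 and the metalloprotease inhibitors Timp1, Timp2 and Timp3. They were taken by name, through the Ensembl identifiers of the deposited tables, and all 7 were found. Plat encodes tissue-type plasminogen activator and Plau encodes urokinase, the serine proteases that turn plasminogen into the broad protease plasmin. Plaur encodes the cell surface receptor that holds urokinase, and serpins such as that encoded by Serpinb2 block both activators. ADAMTS1 is a secreted protease that cuts matrix proteoglycans, and the TIMP proteins bind and block metalloproteases. In neurons, tissue-type plasminogen activator is released at synapses and is known for its part in synaptic plasticity.

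The neurons came from the cortex of CD-1 mouse embryos at embryonic day 15, with tissue of all embryos pooled, and were grown for 7 days in vitro. Every culture was silenced with 100 µM AP-5, an NMDA receptor blocker, and 1 µM TTX, a sodium channel blocker. Stimulated neurons were silenced for 2 h and then received 10 ng/ml BDNF or 55 mM KCl for 1, 6 or 10 h, whereas control neurons stayed in the 2 blockers for 3, 8 or 12 h in all. Each of the 9 groups held 2 RNA and 2 ATAC libraries (18 of each). The study calls its replicates biological. Whether they came from separate dissections or from cultures of the same pooled tissue is not stated in the sources used here, and p-values measure the spread between these samples. RNA libraries held 8508452 to 36699187 reads in genes and ATAC libraries 1241829 to 6236439 reads in peaks, and the deepest RNA library was control 1 h A. The ATAC table is described as normalised, but it holds whole numbers whose totals differ between libraries, and it was treated as read counts. Of the 9 RNA pairs, the KCl 6 h pair differed most (a chi-square of 36.4 per degree of freedom against 2.33 to 9.77 for the other pairs). Markers of neurons, astrocytes and the oligodendrocyte lineage were all detected. The summed normalised counts of 6 neuronal markers were 42902 to 47857 in the controls, against 8839 to 11818 for 5 astrocyte markers and 65.1 to 90.1 for 4 microglial markers. Cldn5, a defining gene of endothelial cells, was at 0 in 10 of the 18 libraries. The other endothelial, mural and fibroblast markers (Pecam1, Pdgfrb, Rgs5, Col1a1 and Dcn) were above 0 in all 18, so Cldn5 alone does not show that such cells were absent. In such bulk samples, fewer cells of a type and less RNA per cell cannot be told apart.

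In control neurons the 7 genes lay at very different levels. Normalised read counts are reads divided by a size factor of the library, and levels are compared between genes per kilobase of exon. Timp2 stood highest with 2099 ± 89.0 normalised counts per kilobase (SD, n = 6). Plat with 112 ± 16.9 and Timp3 with 107 ± 43.2 came next and did not differ beyond their spread. Adamts1 followed with 65.9 ± 13.0. Timp1 with 7.78 ± 3.95 and Plau with 6.12 ± 2.52 lay within each other's spread, and Plaur was lowest with 0.324 ± 0.491. No gene differed between the control times by limma at an adjusted p under 0.1 (0% of 16209 tested genes at 6 against 1 h, and 0% at 10 against 1 h). At an unadjusted p under 0.05 there were 164 and 181 genes, and edgeR and DESeq2 on the reads also called 0 genes. Both counts are less than a share of 0.05 of the tested genes. The test was thus conservative, and 0 calls are weak evidence that the control times agree. Plaur and Timp1 were left out of this test by a filter on low values (given below). Of the 5 members tested, 1 had such a p at 6 h and 0 at 10 h. All 6 control libraries entered the tests as one group.

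**Figure D1:**
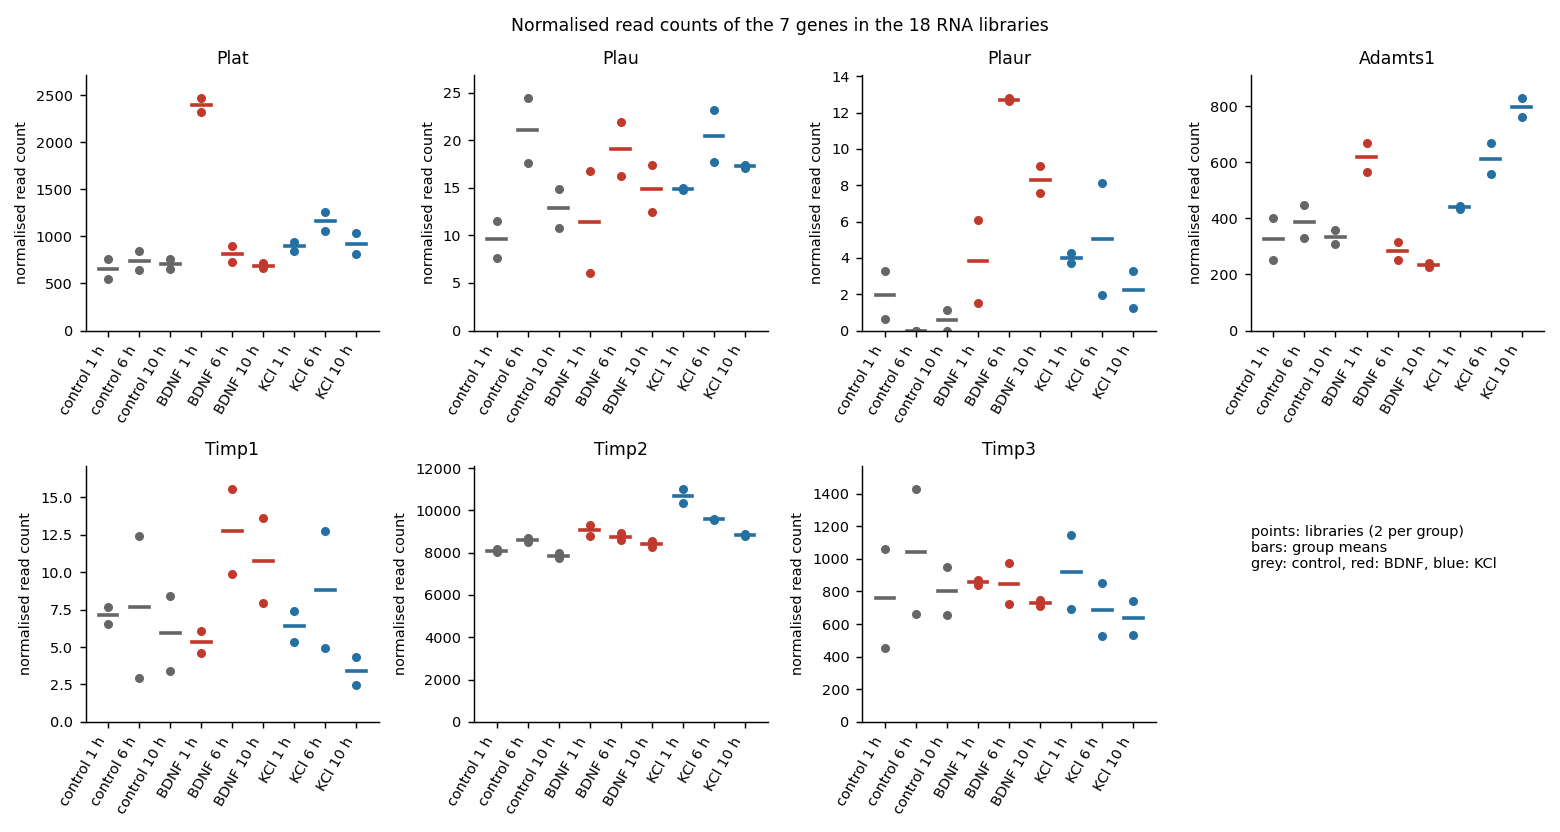
Normalised read counts (y axis, linear from 0) of the 7 genes in the 18 RNA libraries, by stimulus and time (x axis), with points for libraries and bars for group means. Plat peaks at 1 h of BDNF (2317 and 2471), and Adamts1 climbs with KCl to 830 and 762 at 10 h. Timp3 libraries of the same group lie far apart in some groups (661 and 1428 in control 6 h) and close in others (712 and 745 at 10 h of BDNF).

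The next question was which of these genes moved with each stimulus. Of the genes, 5 passed the filter on low values (a mean of at least 10 normalised counts over the 18 libraries), and Plaur and Timp1 did not. In neurons given BDNF for 1 h, 3 of the 5 tested genes rose (Plat, Adamts1 and Timp2), where 40.4% of all tested genes were called. At 6 h of BDNF 0 of 5 were called, against 43.3% of all genes, with 0 at an unadjusted p under 0.05 and 0 by edgeR or DESeq2. At 10 h of BDNF 1 of 5 was called, Adamts1, which fell, against 40.6% of all genes. With KCl the same 3 genes, Plat, Adamts1 and Timp2, were higher than in the controls at 1, 6 and 10 h, where 54.7%, 66.5% and 57.2% of all genes were called. With 5 genes tested, these counts do not set the members apart from all genes. The median log2 fold change of the 5 genes ran from -0.01 at 10 h of BDNF to 0.54 at 6 h of KCl, and that of all genes lay within 0.01 of 0.

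Plat (ENSMUSG00000031538, chr8:22757727-22782844, plus strand, mm10) showed the largest early response to BDNF among the tested members. Its normalised counts in the controls were 548 and 755 at 1 h, 638 and 843 at 6 h, with 756 and 651 at 10 h. With BDNF they were 2317 and 2471 at 1 h, 732 and 894 at 6 h, with 712 and 660 at 10 h. Both 1 h libraries lay far above all 6 controls, while the 6 h and 10 h libraries overlapped them. On the log2(value + 1) scale, Plat rose by 1.79 ± 0.13 (SE, 3.46-fold) at 1 h of BDNF (limma, adjusted p = 1.37e-08). The changes at 6 and 10 h of BDNF, 0.23 and -0.01, were not called (limma, adjusted p = 0.205 and 0.951), although that at 6 h reached 0.28 (adjusted p = 0.0801) without library control 6 h B.

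With KCl, Plat counts were 850 and 942 at 1 h, 1059 and 1260 at 6 h, with 813 and 1032 at 10 h. The 1 h and 6 h libraries exceeded every control, and 1 of the 10 h libraries lay among them. The log2 fold changes against the controls were 0.37 ± 0.13 at 1 h, 0.74 ± 0.13 at 6 h and 0.40 ± 0.13 at 10 h (limma, adjusted p = 0.0302, 0.000135 and 0.0183). The 1 h call was lost without library KCl 1 h B (0.30) and the 10 h call without KCl 10 h B (0.23). The 6 h call held under every setting tried.

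Both stimuli thus raised Plat, and the sizes were compared directly. At 1 h Plat was 2.67-fold higher with BDNF than with KCl (log2 1.42 ± 0.16, adjusted p = 2.59e-06, limma), where 42.8% of all genes differed. At 6 h it was lower with BDNF by log2 -0.51 ± 0.16 and at 10 h by -0.42 ± 0.16 (adjusted p = 0.0149 and 0.0545, limma), where 57.3% and 45% of all genes differed. The 6 h difference lost its call without library KCl 6 h B (-0.39) or BDNF 6 h A (-0.37). The 10 h difference lost it without KCl 10 h B (-0.25), BDNF 10 h A (-0.47) or BDNF 10 h B (-0.36). Within BDNF, Plat fell by 1.56 ± 0.16 on the log2 scale from 1 to 6 h (adjusted p = 1.77e-06, limma, against 33.6% of all genes called), whereas within KCl it rose by 0.37 ± 0.16 (adjusted p = 0.0689, limma, against 59.6%). That last call was lost without KCl 6 h B (0.24) or KCl 1 h A (0.29). From 6 to 10 h, 0 of the 5 genes were called in either stimulus (0.216% of all genes for BDNF and 22.5% for KCl), with 0 at an unadjusted p under 0.05 and 0 by edgeR or DESeq2.

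Adamts1 (ENSMUSG00000022893, chr16:85793827-85803113, minus strand, mm10) moved in opposite directions late in the 2 stimuli. Control counts were 252 and 400 at 1 h, 329 and 447 at 6 h, with 357 and 310 at 10 h. BDNF gave 566 and 669 at 1 h, 250 and 317 at 6 h, with 227 and 241 at 10 h. The 1 h libraries stood above all controls and the 10 h libraries below all of them, while those of 6 h overlapped. Adamts1 rose 1.79-fold at 1 h of BDNF (log2 0.84 ± 0.16, adjusted p = 0.000411, limma) and fell by 0.55 ± 0.16 on the log2 scale at 10 h (adjusted p = 0.0122, limma). The 10 h call was lost without library BDNF 10 h A (-0.51, adjusted p = 0.108). The 6 h value of -0.29 was not called (adjusted p = 0.168, limma), but it was without control 1 h A (-0.37, adjusted p = 0.0222) and against the controls of the same time (-0.44, adjusted p = 0.0959).

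With KCl, Adamts1 counts were 445 and 434 at 1 h, 668 and 559 at 6 h, with 830 and 762 at 10 h. The 6 h and 10 h libraries were all above the controls, and the 1 h pair lay just within their range. The log2 fold changes were 0.35 ± 0.16 at 1 h, 0.83 ± 0.16 at 6 h and 1.21 ± 0.16 at 10 h, or 2.31-fold (limma, adjusted p = 0.0709, 0.000182 and 5.56e-06). The 1 h call rested on single libraries and was lost without KCl 1 h A (0.34), KCl 1 h B (0.37), control 10 h B (0.32) or control 6 h A (0.34). Set against each other, BDNF exceeded KCl at 1 h by 0.49 ± 0.19, and KCl exceeded BDNF at 6 and 10 h (BDNF minus KCl -1.11 ± 0.19 and -1.76 ± 0.19; limma, adjusted p = 0.0568, 0.000102 and 1.39e-06). The 1 h difference was lost without KCl 1 h A (0.50), KCl 1 h B (0.47) or BDNF 1 h B (0.36). Between 1 and 6 h Adamts1 fell by 1.13 ± 0.19 on the log2 scale with BDNF and rose by 0.47 ± 0.19 with KCl (limma, adjusted p = 0.000274 and 0.0449). The KCl rise was lost without KCl 6 h A (0.35), KCl 1 h A (0.49) or KCl 1 h B (0.46).

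**Figure D2:**
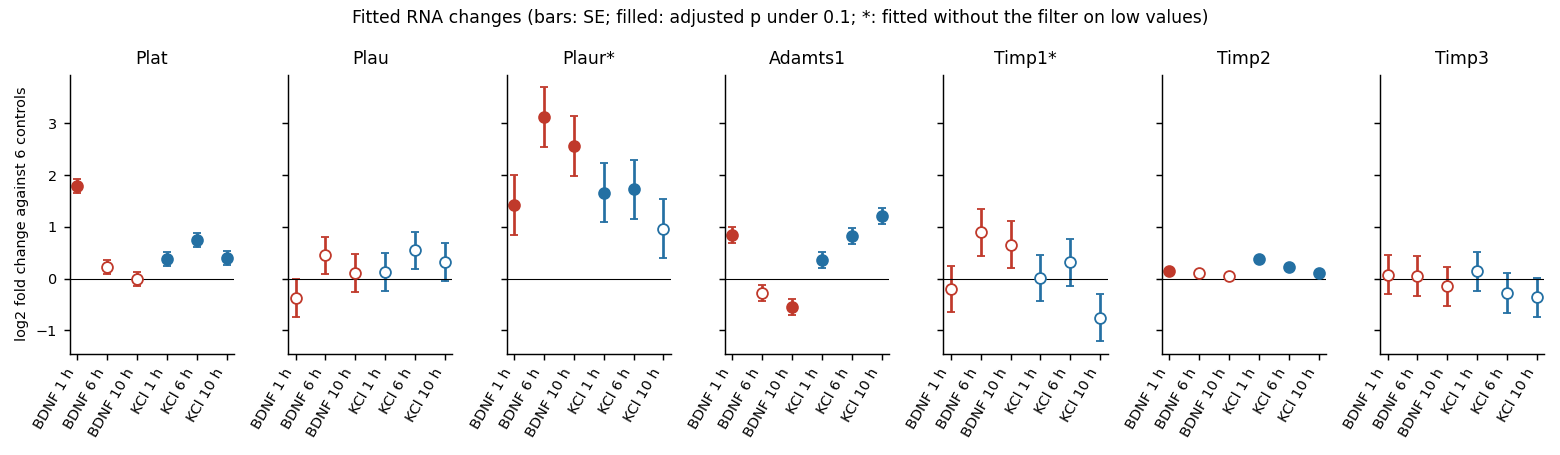
Fitted log2 fold changes against the 6 controls (y axis) for the 7 genes by stimulus and time (x axis), with SE bars and filled points where the adjusted p was under 0.1. Plat is highest at 1 h of BDNF (1.79), Adamts1 lies below 0 at 10 h of BDNF (-0.55) and at 1.21 at 10 h of KCl, and no point of Plau or Timp3 is filled.

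The TIMP genes changed little. Timp2 (ENSMUSG00000017466, chr11:118301069-118355740, minus strand), the most abundant of the 7 genes per kilobase, ranged from 7741 to 8677 counts in the controls. At 1 h it was at 8804 and 9333 with BDNF and at 10336 and 11009 with KCl, and all 4 of these libraries exceeded every control. KCl raised Timp2 by log2 0.38 ± 0.05 at 1 h, 0.23 ± 0.05 at 6 h and 0.11 ± 0.05 at 10 h (limma, adjusted p = 4.12e-06, 0.000894 and 0.0874). The 1 h value corresponds to 1.31-fold. BDNF raised it by 0.15 ± 0.05 at 1 h (adjusted p = 0.0367, limma), and the values of 0.10 and 0.04 at 6 and 10 h were not called. At 1 h Timp2 was lower with BDNF than with KCl by log2 -0.23 ± 0.07 (adjusted p = 0.00751, limma), a difference that held under every setting tried. From 1 to 6 h of KCl it fell by 0.15 ± 0.07 on the log2 scale (adjusted p = 0.0536, limma). The BDNF call was lost without BDNF 1 h B (0.11), and the change within KCl without KCl 6 h A (-0.15, adjusted p = 0.105) or KCl 1 h B (-0.11). The KCl 10 h call was lost without KCl 10 h A (0.10), KCl 10 h B (0.12), control 10 h A (0.10), control 10 h B (0.11) or control 1 h B (0.11), in 3 edgeR tests, and without the filter.

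Timp3 (ENSMUSG00000020044, chr10:86300372-86349506, plus strand) was not called in any comparison. Its control counts were 455 and 1063 at 1 h, 661 and 1428 at 6 h, with 948 and 653 at 10 h. All libraries of the stimulated groups lay within this range. Some of their pairs lay far apart, such as 694 and 1146 at 1 h of KCl, and others close, such as 712 and 745 at 10 h of BDNF. In all 9 pairs the library with more Timp3 also had the larger sum of astrocyte markers, as in the control 6 h pair with sums of 9969 and 11818. That library was B in every group except control 10 h, where it was A. What the letters stand for is not given, so the 9 pairs may not be independent of each other. Most of the astrocyte sum was Slc1a3, with a median of 8468 counts over the 18 libraries. The sum of endothelial, mural and fibroblast markers was also larger in the library with more Timp3, except in 10 h pairs of KCl and controls. It was 1561 in A and 1495 in B at 10 h of KCl, and 1860 in A and 2106 in B in control 10 h. The part of the astrocyte or other markers in the Timp3 spread was not tested. The log2 fold changes lay between -0.36 (95% interval -1.20 to 0.48, t with 11 degrees of freedom) at 10 h of KCl and 0.14 (-0.70 to 0.98) at 1 h of KCl, so that changes of that size could not be detected here. Leaving out KCl 1 h B or control 1 h A turned the latter to -0.22 or -0.03. Timp3 lies inside Syn3, a synapsin gene on the opposite strand, and 1733 bp (21.3%) of its exons overlap exons of Syn3. Whether the reads were counted by strand is not given in the sources used here, and without strand reads from the overlap cannot be told apart. Syn3 itself fell at 6 h with BDNF (log2 -1.04 ± 0.14) and KCl (-1.44 ± 0.14, limma, adjusted p = 6.73e-06 and 2.21e-08). It was lower at 10 h as well, with BDNF (-0.74 ± 0.14) and KCl (-1.38 ± 0.14, limma, adjusted p = 0.000441 and 9.45e-08).

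Timp1 (ENSMUSG00000001131, chrX:20870166-20874735, plus strand) was near the limit of detection, with 2 to 20 reads per library. Its control counts were 2.94 to 12.4, with a median of 7.12. It was at 9.91 and 15.6 at 6 h of BDNF, at 7.91 and 13.6 at 10 h of BDNF, and at 2.45 and 4.36 at 10 h of KCl. The libraries of every stimulated group overlapped the controls. Without the filter on low values, the change against the controls lay between -0.75 (10 h of KCl) and 0.89 (6 h of BDNF) and was not called, and Timp1 was higher with BDNF than with KCl at 10 h by log2 1.41 ± 0.55 (limma, adjusted p = 0.0720). In that fit 27.9% of 26618 genes were called at 10 h, 37.6% at 6 h and 29.2% at 1 h. The call was lost without KCl 10 h A (1.09) or BDNF 10 h B (1.05). Timp1 lies within an intron of Syn1, on the opposite strand and with 0 bp of shared exon.

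Plau (ENSMUSG00000021822, chr14:20836660-20843385, plus strand) had 4 to 35 reads per library and was called in no comparison. Its control counts were 7.68 to 24.5, with a median of 13.2, and the libraries of all 6 stimulated groups overlapped this range. The log2 fold change ranged from -0.38 (95% interval -1.18 to 0.42) at 1 h of BDNF to 0.54 (-0.26 to 1.34) at 6 h of KCl. The former became 0.29 without library BDNF 1 h A and was called without BDNF 1 h B (-1.04, adjusted p = 0.0958), and the latter was called without control 6 h A (0.70, adjusted p = 0.0870). Tests against the controls of the same time turned both values, to 0.11 and -0.04.

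Plaur (ENSMUSG00000046223, chr7:24462484-24475968, plus strand) was almost silent in control neurons, with 6 reads in the 6 libraries together and none in 3 of them. Its normalised counts in the controls were 0.657 and 3.29 at 1 h, 0 and 0 at 6 h, with 0 and 1.14 at 10 h. BDNF gave 6.08 and 1.53 at 1 h, 12.6 and 12.8 at 6 h, with 9.04 and 7.57 at 10 h. The 4 libraries of 6 and 10 h of BDNF all exceeded every control. With KCl the counts were 3.70 and 4.28 at 1 h, 1.97 and 8.10 at 6 h, with 1.22 and 3.27 at 10 h, and only the 1 h pair lay above every control. Summed over libraries, Plaur had 28 reads at 6 h of BDNF and 6 in the controls. In RPM this was 1.06 at 6 h of BDNF (exact Poisson 95% interval 0.703 to 1.53) and 0.0654 (0.0240 to 0.142) in the controls. Such intervals cover counting error only.

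Plaur was tested without the filter, where 23.9%, 25.5% and 23.5% of 26618 genes were called at 1, 6 and 10 h of BDNF and 37.9%, 44.8% and 36.9% at the same times of KCl. It rose with BDNF by log2 1.43 ± 0.58 at 1 h, 3.12 ± 0.58 at 6 h and 2.56 ± 0.58 at 10 h (limma, adjusted p = 0.0937, 0.000357 and 0.00290). With KCl the changes were 1.66 ± 0.58, 1.72 ± 0.58 and 0.97 ± 0.58 (limma, adjusted p = 0.0301, 0.0202 and 0.232). The BDNF calls at 6 and 10 h held without any one library and with edgeR on the reads, which gave 3.83 and 3.20. The BDNF 1 h call was lost without BDNF 1 h A (0.68), control 10 h A, control 6 h A, control 6 h B (1.295 each) or control 1 h A (1.44), and by edgeR (1.84, adjusted p = 0.166), and was 2.17 without BDNF 1 h B. The KCl 1 h call was lost without KCl 1 h A (1.74) or KCl 1 h B (1.58) and the KCl 6 h call without KCl 6 h B (0.91), while the KCl 10 h value was called without control 1 h B (1.26). The difference between the stimuli was not called by limma (1.40 ± 0.71 at 6 h and 1.59 ± 0.71 at 10 h, adjusted p = 0.146 and 0.119). At 6 h edgeR called it (1.38, adjusted p = 0.0935), as did limma without KCl 6 h B (2.21).

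Marker sums moved in many of the same groups as the members. Of all tested genes, 40.4%, 43.3% and 40.6% were called at 1, 6 and 10 h of BDNF. At the same times of KCl 54.7%, 66.5% and 57.2% were called. With so few genes per list, the counts of called markers below do not set them apart from all genes. At 1 h of BDNF, when Plat was highest, the neuronal sum was 48283 to 49226 and that of 4 genes of the oligodendrocyte lineage 6151 to 6386, both above every control (42902 to 47857 and 5632 to 6065), with 3 of 6 and 1 of 4 genes called higher. The astrocyte sum there was 10678 to 11264, within the control range of 8839 to 11818, with 0 of 4 tested markers called by limma. At 1 h of KCl, when Timp2 was highest, the oligodendrocyte-lineage sum was 4175 to 4721, below every control, and 2 of the 4 genes fell. The astrocyte sum was 10604 to 12637 at that time, with 0 of 4 called by limma. The summed counts of 6 endothelial, mural and fibroblast genes were then 2130 to 2525 against 1747 to 2106 in the controls, and 2 of the 4 tested genes rose. At 6 and 10 h of KCl, when Adamts1 was high, the astrocyte sum was 7027 to 8307 and 7729 to 8227, below all controls, and 4 of 4 tested markers fell at both times. The oligodendrocyte-lineage sum was 6791 to 7138 and 6413 to 7048 at these times, above all controls, with 2 genes higher and 1 lower at 6 h and 1 higher at 10 h. The endothelial, mural and fibroblast sum was 1630 to 1636 and 1495 to 1561, below all controls. Of its 4 tested genes, 0 rose and 1 fell at 6 h, and 1 rose and 2 fell at 10 h. The gene that rose was Pecam1 (log2 0.88, adjusted p = 0.0231, limma). Most of this sum was Col1a1, with a median of 1341 counts over the 18 libraries. At 10 h of BDNF, when Adamts1 was below the controls, the sum was 1502 to 1589, and 2 of 4 genes fell. At 6 h of BDNF the astrocyte sum was 8668 to 9039 and all 4 tested markers fell. The microglial sum was below all controls at 6 h of BDNF (54.9 to 62.2) and at 6 and 10 h of KCl (58.0 to 61.4 and 59.9 to 61.0), with 1 of 3 tested genes lower each time. The part of these shifts in the changes of Adamts1, Plat, Plaur and Timp2 was not tested.

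The other genes of plasminogen activation were counted in the same fit. Of 10 further genes, 8 passed the filter, and 2 rose and 0 fell at 1 h of BDNF, 4 rose and 2 fell at 6 h, and 4 rose and 1 fell at 10 h, where 40.4%, 43.3% and 40.6% of all genes were called in either direction. With KCl, 3 rose and 1 fell at 1 h, and 5 rose and 1 fell at 6 h and again at 10 h, where 54.7%, 66.5% and 57.2% of all genes were called. The 2 of 8 at 1 h of BDNF and 4 of 8 at 1 h of KCl are below the shares of all genes, and the other counts are above them. Their median log2 fold change ran from -0.03 at 1 h of KCl to 0.33 at 6 h of KCl. Plg, the gene of plasminogen, and Serpinf2, that of the plasmin inhibitor, did not pass the filter, and Plg was at 0.845 ± 0.973 normalised counts in the controls (SD, n = 6). Serpinf2 is named here after its values were seen, since it was at 0 to 5.18 counts in the controls and at 18.2 and 33.3 at 1 h of KCl.

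The inhibitor genes were compared between the stimuli as well. Serpinb2, which encodes plasminogen activator inhibitor type 2, was at 7.83 to 12.4 counts in the controls and at 109 and 113 at 1 h of BDNF. It rose with BDNF by log2 3.31 ± 0.23, 2.98 ± 0.23 and 2.29 ± 0.23 at 1, 6 and 10 h (limma, adjusted p = 1.29e-10, 1.21e-09 and 1.12e-07), and with KCl by 0.82 ± 0.23 at 6 h (adjusted p = 0.00361, limma). The direct difference between BDNF and KCl was 3.73 ± 0.28 at 1 h (adjusted p = 7.50e-10, limma). Serpini1, the gene of neuroserpin, an inhibitor of tissue-type plasminogen activator in neurons, was at 1983 to 2503 counts in the controls and at 4083 and 4126 at 6 h of KCl. It rose with KCl by log2 0.33 ± 0.08, 0.82 ± 0.08 and 0.71 ± 0.08 at 1, 6 and 10 h (limma, adjusted p = 0.00119, 9.18e-09 and 1.74e-07). With BDNF it was lower at 6 h (-0.18 ± 0.08) and higher at 10 h (0.25 ± 0.08; limma, adjusted p = 0.0797 and 0.0155). The 10 h call was lost without BDNF 10 h B (0.22), and the 6 h call without BDNF 6 h A, BDNF 6 h B, control 10 h B, control 6 h A or control 1 h A (-0.19 to -0.16). Serpini1 was lower with BDNF than with KCl by log2 -0.44 ± 0.10, -1.002 ± 0.095 and -0.45 ± 0.10 at 1, 6 and 10 h (limma, adjusted p = 0.000856, 2.13e-08 and 0.000718).

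Serpine2, which encodes protease nexin 1, an inhibitor of thrombin and of both activators, was at 1210 to 1291 counts in the controls. It was at 1520 and 1603 at 6 h and at 1507 and 1665 at 10 h of BDNF, and at 1364 and 1653 and at 1419 and 1518 at these times of KCl, all above every control. It rose by log2 0.33 ± 0.07 and 0.35 ± 0.07 at 6 and 10 h of BDNF (limma, adjusted p = 0.000829 and 0.000597) and by 0.15 ± 0.07, 0.28 ± 0.07 and 0.24 ± 0.07 at 1, 6 and 10 h of KCl (limma, adjusted p = 0.0788, 0.00185 and 0.00655). The KCl 6 h call was lost without KCl 6 h B (0.14), the 10 h call without KCl 10 h B (0.19), and the 1 h call without any one of 5 libraries (0.11 to 0.20). The differences between BDNF and KCl were -0.03 ± 0.09, 0.06 ± 0.09 and 0.11 ± 0.09 and were not called (limma, adjusted p = 0.843, 0.609 and 0.338). Plat and Serpinb2 were thus both higher at 1 h of BDNF than in the controls, and Plat, Serpini1 and Serpine2 at 6 h of KCl.

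Among metalloproteases, Adamts1 was set beside its relatives. Of 17 other ADAMTS genes 16 were tested. At 1 h of BDNF, 0 rose and 8 fell, where 40.4% of all genes were called. At 10 h of BDNF, 2 rose and 10 fell, with a median log2 fold change of -0.51, where 40.6% of all genes were called. At 10 h of KCl 7 rose and 4 fell, against 57.2% of all genes. At 6 h of BDNF 2 rose and 9 fell, against 43.3% of all genes. At 1 h of KCl 0 rose and 4 fell, and at 6 h 6 rose and 6 fell, against 54.7% and 66.5%. Adamts15 was at 153 to 179 counts in the controls, at 73.5 and 75.7 at 10 h of BDNF, and at 309 and 422 at 10 h of KCl (log2 -1.15 ± 0.13 and 1.11 ± 0.13; limma, adjusted p = 1.19e-06 and 6.34e-07). Adamts15 was also lower than the controls at 1 h of KCl (log2 -1.14 ± 0.13, limma, adjusted p = 3.81e-07). Adamts17 and Adamts18 fell at 10 h of KCl (log2 -2.198 ± 0.132 and -1.44 ± 0.14, limma, adjusted p = 1.85e-11 and 2.61e-08). Of 14 genes of matrix metalloproteases and the related ADAM10 and ADAM17, 10 were tested. At 1, 6 and 10 h of BDNF 1, 1 and 1 rose and 0, 0 and 2 fell. At the same times of KCl 3, 2 and 1 rose and 0, 1 and 2 fell. These counts are below the shares of all genes called against the controls, which ran from 40.4% to 66.5%. Mmp9 did not pass the filter, with 3.605 to 12.57 counts in the controls. The inhibitor genes Timp4 and Reck were both tested, and at 10 h of KCl Timp4 fell by 0.32 ± 0.16 on the log2 scale (adjusted p = 0.0963, limma), a call that most other settings did not make. Reck fell at the 3 BDNF times and at 1 h of KCl and rose at 6 and 10 h of KCl.

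**Figure D3:**
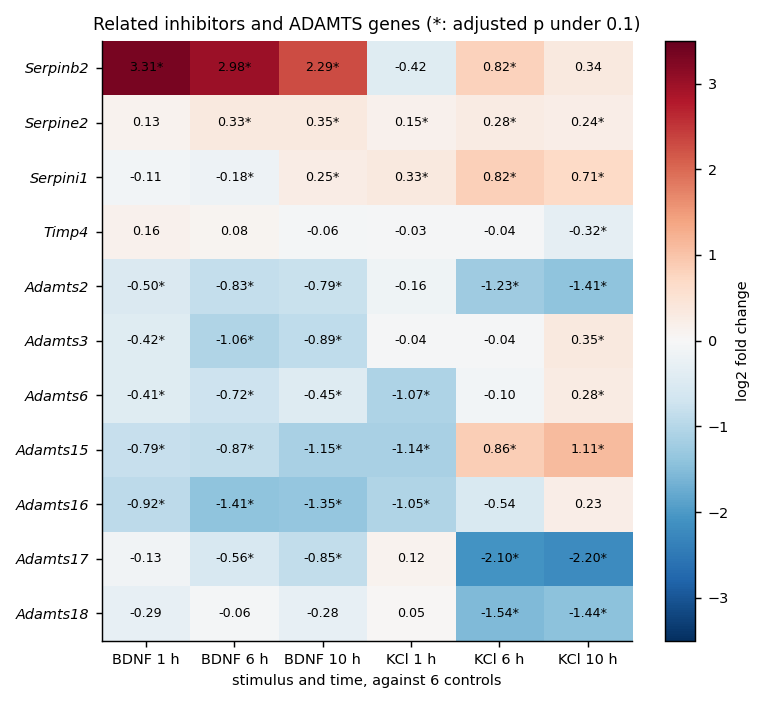
Log2 fold changes against the 6 controls (colour and printed value) of 11 related genes (rows) by stimulus and time (columns), with an asterisk on 45 of them where limma's adjusted p was under 0.1. Serpinb2 is dark red in the 3 BDNF columns (3.31, 2.98 and 2.29). Adamts15 is blue with BDNF and at 1 h of KCl (-1.14), and red at 6 and 10 h of KCl.

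Of the 45 calls marked in that plot, 13 were lost without 1 library. Genes whose 9 group means tracked those of a member most closely were listed for the members that spanned at least 1 log2 unit, as a description over points that share libraries and normalisation. For Plat, with a span of 1.89, these were Cacul1 (Pearson r = 0.987), Pcyt1a (0.985) and Cdk12 (0.981). For Adamts1, with a span of 1.76, they were Hcfc1 (0.956), Vat1 (0.956) and Chml (0.954). For Plau, with a span of 1.06 on few reads, they were Vma21-ps (0.856), Lyz2 (0.852) and Gm16845 (0.849). The span of Plau is that between its controls of 1 and 6 h, so it was listed through unstimulated groups.

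To see whether chromatin near the genes opened or closed, the 58177 accessible regions (ATAC-seq peaks) were searched for those within 50 kb of a member's start or in its body. This gave 27 peaks, 3 for Plat, 5 for Plau, 4 for Plaur, 3 for Timp1, 2 for Timp2, 3 for Timp3 and 7 for Adamts1, and all 27 were tested. A peak near a gene need not act on it, and 4 of the 27 lie over promoters of other genes. In neurons given BDNF, 5, 4 and 3 of the 27 were called at 1, 6 and 10 h, all gained, where 17.3%, 10.6% and 9.38% of 56383 tested peaks were called. With KCl the counts were 3 at 1 h (2 gained and 1 closing), 0 at 6 h and 1 at 10 h, against 8.36%, 7.54% and 7.91% of all peaks. At 6 h of KCl edgeR called 0 of the 27, with 6 at an unadjusted p under 0.05, and DESeq2 called 1. Between BDNF and KCl, 1 peak was called at each time, against 14.8%, 3.64% and 1.99% of all peaks. These shares lay on both sides of those of all peaks. The called peaks belonged to Plat, Plaur, Adamts1 and Timp1, and none of the 10 peaks of Plau, Timp2 and Timp3 was called in any of the 9 comparisons by edgeR.

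**Figure D4:**
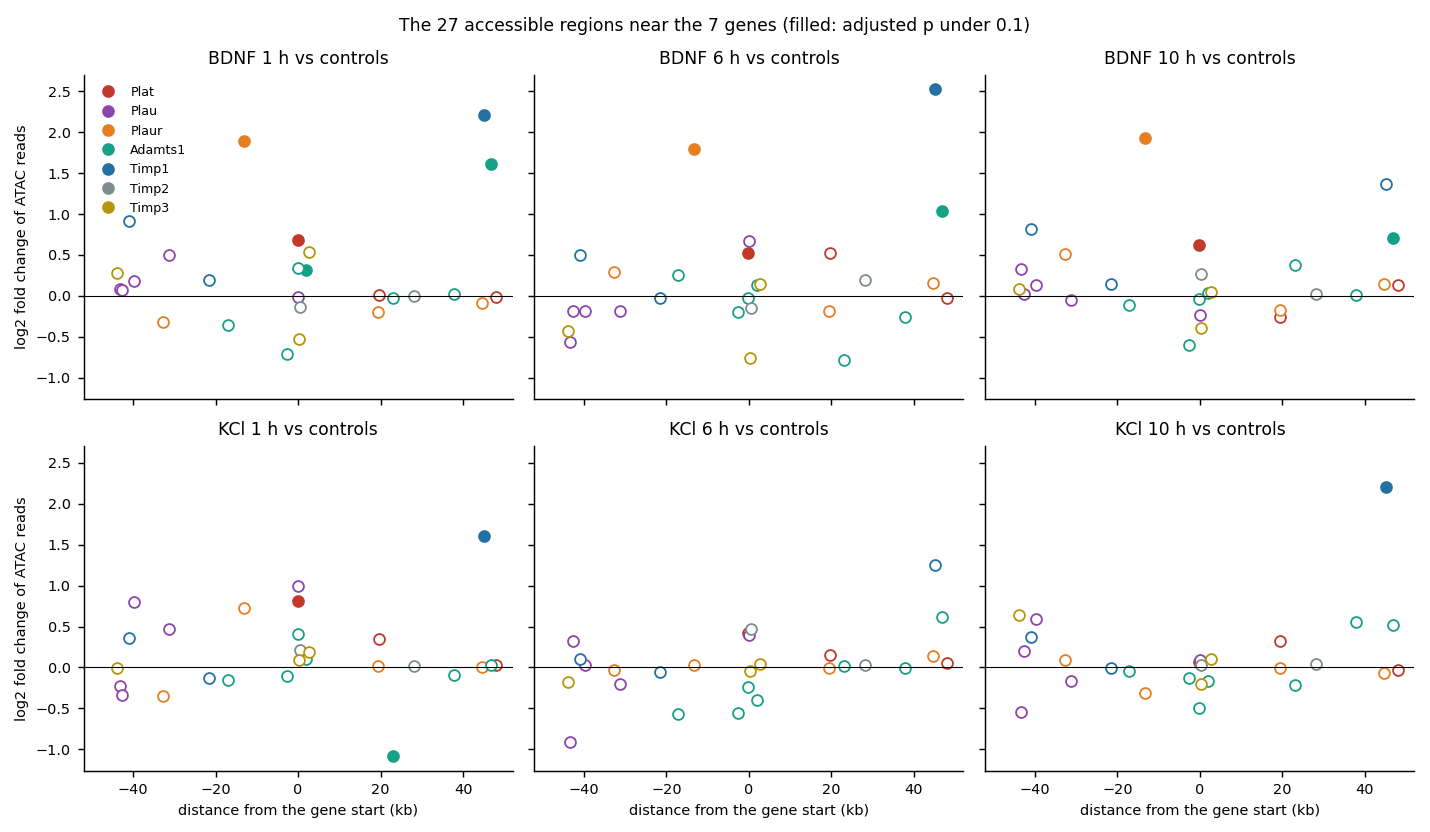
Log2 fold changes of ATAC reads (y axis) of the 27 peaks against their distance from the gene's start in kilobases (x axis, positive downstream), one panel per stimulus and time, filled where edgeR's adjusted p was under 0.1. The filled points above 1.5 at BDNF 1 h are the peaks at -13.2 kb of Plaur (1.89), +45.1 kb of Timp1 (2.21) and +46.7 kb of Adamts1 (1.61).

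At BDNF 1 h, 3 peaks gained more than 2-fold in accessibility, and their sequences are shown because they carry the largest accessibility changes at these genes. Each is the window of 300 bases at the centre of the peak, on the plus strand of GRCm38.p6 (the mm10 assembly, RefSeq), with motif letters in capitals. The letters searched on both strands were TGANTCA (AP-1 sites), TGACGTCA (CRE), and GCGTGGGCG or GCGGGGGCG (EGR sites), and in the sequences shown no matches overlapped.
Plaur -13.2 kb, chr7:24449127-24449426: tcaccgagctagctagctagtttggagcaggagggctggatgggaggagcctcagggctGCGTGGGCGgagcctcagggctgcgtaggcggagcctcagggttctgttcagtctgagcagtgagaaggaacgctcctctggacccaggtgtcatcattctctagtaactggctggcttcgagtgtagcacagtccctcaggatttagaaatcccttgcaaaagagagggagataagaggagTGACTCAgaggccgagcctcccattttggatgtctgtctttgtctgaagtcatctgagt
Adamts1 +46.7 kb, chr16:85756224-85756523: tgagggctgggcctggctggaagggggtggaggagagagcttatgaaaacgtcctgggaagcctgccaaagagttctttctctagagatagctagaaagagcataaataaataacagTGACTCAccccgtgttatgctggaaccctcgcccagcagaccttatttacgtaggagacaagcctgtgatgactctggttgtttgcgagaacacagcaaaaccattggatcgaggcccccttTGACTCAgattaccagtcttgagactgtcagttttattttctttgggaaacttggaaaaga
Timp1 +45.1 kb, chrX:20915121-20915420: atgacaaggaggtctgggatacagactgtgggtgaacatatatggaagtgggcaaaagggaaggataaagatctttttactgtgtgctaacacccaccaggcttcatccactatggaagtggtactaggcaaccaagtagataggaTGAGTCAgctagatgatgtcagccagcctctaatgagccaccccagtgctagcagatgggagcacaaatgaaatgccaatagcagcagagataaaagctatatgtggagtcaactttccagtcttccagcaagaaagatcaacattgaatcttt

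The Plaur window held 1 AP-1 and 1 EGR match, the Adamts1 window 2 AP-1 matches and the Timp1 window 1. Of the 25 windows searched at the members, these 3 were the ones with an AP-1 match, and 16.4% of windows around all 58177 peaks had one. The 2 member peaks left out of this search are those over the starts of Plat and Plau, so nothing is known here of their motif letters. An EGR match was found in 1 of the 25 and in 2.17% of all windows, and a CRE in 0 of the 25 and in 0.985% of all. Promoter sequence (250 bases before to 50 after the start) was available for 5 of the 7 genes, and Plat and Plau had no entry. Of those 5, that of Plaur held 1 AP-1 and 1 EGR match and the other 4 none of these letters, and 7.81% and 3.47% of all 32851 promoters in the RefSeq table held them. A CRE stood in 1.79% of all promoters. The Plaur promoter is shown since this gene went from almost no reads to its highest level at 6 h of BDNF.
Plaur promoter, chr7:24462233-24462532, plus strand: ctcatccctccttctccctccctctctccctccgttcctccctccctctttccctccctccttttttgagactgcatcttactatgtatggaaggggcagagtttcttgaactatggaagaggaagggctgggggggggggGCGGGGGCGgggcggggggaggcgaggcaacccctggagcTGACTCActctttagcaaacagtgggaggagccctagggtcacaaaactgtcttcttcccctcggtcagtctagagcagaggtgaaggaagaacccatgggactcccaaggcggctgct
A match describes letters and does not show that a factor was bound.

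The Plaur peak at -13.2 kb lies in an intron of Irgc1, whose start is nearer (3020 bp away) than that of Plaur. Its scaled ATAC counts (reads after removal of the fitted library offsets) were 1.4 to 10.2 in the controls, 18.1 and 18.3 at 1 h of BDNF, 16.7 and 17.3 at 6 h, with 16.6 and 20.6 at 10 h. With KCl they were 11.2 and 5.5, 5.8 and 2.6, and 2.9 and 4.8. All 6 BDNF libraries exceeded every control, and at 6 and 10 h the KCl libraries lay within the control range. The peak gained with BDNF by log2 1.89 ± 0.49, 1.79 ± 0.50 and 1.93 ± 0.53 (edgeR quasi-likelihood test, adjusted p = 0.00260, 0.00714 and 0.00916), whereas 0.73, 0.03 and -0.32 with KCl were not called. The difference between BDNF and KCl was called at 10 h (2.24 ± 0.70, adjusted p = 0.0939, edgeR), not by DESeq2 (2.38, adjusted p = 0.116). With few reads per library, the calls were lost without BDNF 1 h A (1.48), BDNF 1 h B (1.40), BDNF 6 h A (1.55), BDNF 6 h B (1.44) or BDNF 10 h B (1.58). The 10 h difference was lost without KCl 10 h A (2.02), KCl 10 h B (2.72), BDNF 10 h A (2.349) or BDNF 10 h B (2.00). Among the BDNF times Plaur RNA was highest at 6 h, while the scaled counts of this peak were already above all controls at 1 h.

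The Adamts1 peak at +46.7 kb is intergenic (chr16:85756157-85756590), and Adamts1 is the nearest protein-coding gene. Its scaled counts were 29.9 to 49.2 in the controls, 118 and 115 at 1 h of BDNF, 77.5 and 79.1 at 6 h, with 68.6 and 56.9 at 10 h. With KCl they were 42.8 and 35.7 at 1 h, inside the control range, and 55.8 and 63.9 at 6 h. It gained with BDNF by log2 1.61 ± 0.21, 1.04 ± 0.22 and 0.70 ± 0.26 (edgeR, adjusted p = 3.82e-10, 0.000219 and 0.0792), and the 3 KCl values (0.03, 0.62 and 0.52) were not called. At 1 h BDNF exceeded KCl by 1.58 ± 0.27 (adjusted p = 6.23e-06, edgeR), and this held under every setting tried. The 10 h gain was lost without BDNF 10 h A (0.57), BDNF 10 h B (0.85), control 6 h B (0.67), control 1 h B (0.65) or control 10 h B (0.65), and against controls of the same time (0.74). With BDNF the Adamts1 RNA was below the controls at 10 h while this peak was above them.

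Other Adamts1 peaks moved less. The peak at the start of the gene (chr16:85802933-85803541) was called in no comparison. An intronic peak at chr16:85800721-85801681 gained slightly at 1 h of BDNF (log2 0.32 ± 0.12) and was higher with BDNF than with KCl at 6 h (0.53 ± 0.17; edgeR, adjusted p = 0.0683 and 0.0812). The former was lost without BDNF 1 h A (0.14), control 6 h A (0.30) or control 1 h B (0.28) and with DESeq2 (0.23) or limma (0.32), and was 0.50 without BDNF 1 h B. The latter was lost without any one of KCl 6 h A (0.80), KCl 6 h B (0.40), BDNF 6 h A (0.50) and BDNF 6 h B (0.56). A narrow peak at chr16:85779921-85780046 was closing at 1 h of KCl (-1.08 ± 0.39, adjusted p = 0.0902, edgeR), with 16.3 and 10.0 scaled counts against 10.98 to 40.86 in the controls. That call was lost against the controls of the same time (-0.25). It was also lost without KCl 1 h A (-1.43), KCl 1 h B (-0.72), control 6 h A (-1.04), control 6 h B (-1.02), control 10 h A (-0.95) or control 10 h B (-1.03).

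**Figure D5:**
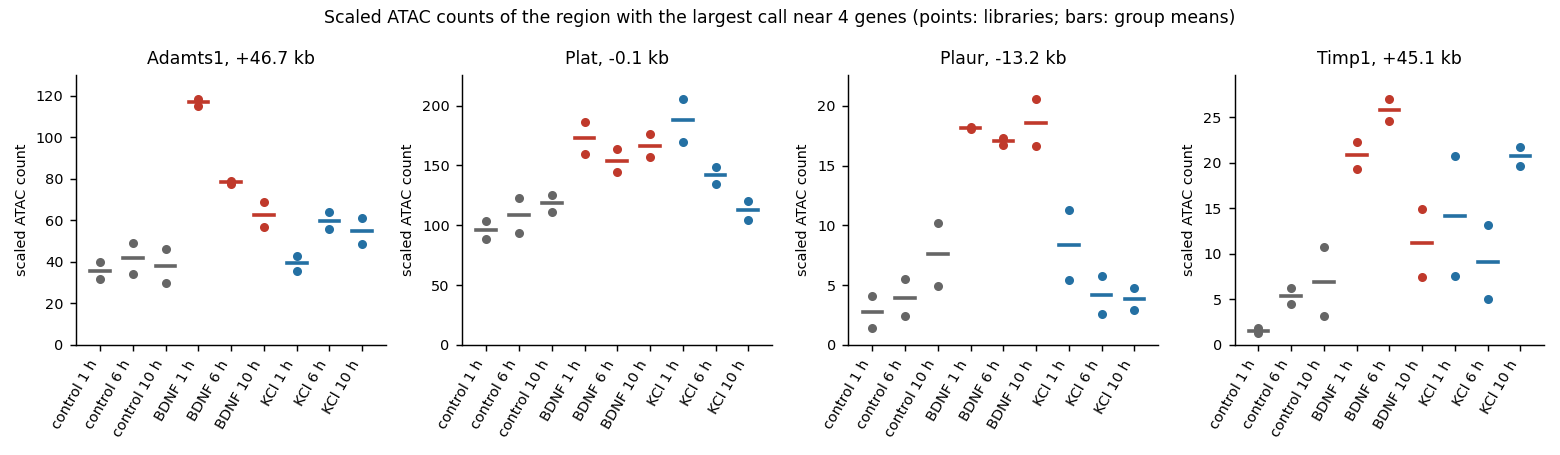
Scaled ATAC counts (y axis, linear from 0) of 1 peak each near Adamts1, Plat, Plaur and Timp1 in the 18 ATAC libraries, by stimulus and time (x axis), with points for libraries and bars for group means. The 2 libraries of BDNF 1 h stand above all 6 controls in each panel, and those of KCl 1 h do so at Plat (170 and 205) and not at Adamts1 (42.8 and 35.7).

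The Plat promoter opened with both stimuli. The peak over its start (chr8:22757311-22757908) had 88.3 to 126 scaled counts in the controls. It had 186 and 159 at 1 h, 145 and 163 at 6 h, with 176 and 157 at 10 h of BDNF, and 170 and 205 at 1 h, 148 and 135 at 6 h, with 105 and 121 at 10 h of KCl. The libraries of all 3 BDNF times and of 1 and 6 h of KCl lay above every control, and those of 10 h of KCl lay among them. The gains were log2 0.68 ± 0.14, 0.53 ± 0.14 and 0.63 ± 0.16 with BDNF and 0.81 ± 0.14 at 1 h of KCl (edgeR, adjusted p = 8.66e-05, 0.00617, 0.00319 and 2.63e-05). The KCl values of 0.42 at 6 h and 0.07 at 10 h were not called (edgeR, adjusted p = 0.123 for the former), though the 6 h value was without control 10 h A (0.46) or control 6 h A (0.47). The BDNF 6 h call was lost without BDNF 6 h B (0.43) and the 10 h call without BDNF 10 h A (0.55) and against controls of the same time (0.49). The difference between BDNF and KCl at 1 h was -0.13 ± 0.17 (adjusted p = 0.696, edgeR), the time at which Plat RNA was 2.67-fold higher with BDNF. Plat RNA was not called at 6 h (732 and 894 normalised counts) or 10 h of BDNF (712 and 660), times at which the promoter peak was above every control.

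The Timp1 peak at +45.1 kb lies in an intron of Syn1 (chrX:20915176-20915364), whose start is nearer than that of Timp1. Its scaled counts were 1.3 to 10.7 in the controls, 22.3 and 19.3 at 1 h and 24.53 and 26.98 at 6 h of BDNF, 20.7 and 7.6 at 1 h of KCl, and 19.7 and 21.7 at 10 h of KCl. Both BDNF pairs and the 10 h KCl pair exceeded every control. It gained by log2 2.21 ± 0.49 and 2.52 ± 0.47 at 1 and 6 h of BDNF, and by 1.61 ± 0.52 at 1 h and 2.205 ± 0.501 at 10 h of KCl (edgeR, adjusted p = 0.000204, 1.31e-05, 0.0464 and 0.00147). The KCl 1 h call was lost without KCl 1 h A (0.74) and with limma (1.50), and the KCl 10 h call against the controls of the same time (1.66). At 1 h the gains against such controls were 3.59 with BDNF and 2.99 with KCl, and both control 1 h libraries were the lowest of the 6 (1.3 and 1.9). Timp1 and Syn1 RNA were not called against the controls at any time, by limma without and with the filter.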

How the data were processed

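RNA and ATAC libraries of silenced, BDNF-treated and KCl-treated mouse cortical neurons were analysed from the deposited tables. The authors aligned RNA reads with TopHat2 to mm10 with GENCODE M16 and normalised them with DESeq2. The read counter and its use of strand are not stated in what was read here. In the RNA table as deposited, the signal is reads over a size factor of the library, and whole reads could be recovered for 100% of values in all 18 columns (tolerance 0.01). The deposited ATAC table is described as normalised but holds whole numbers with differing totals, and it was treated as counts per peak, which the authors obtained with Trimmomatic, Bowtie2, MACS2 per sample and DiffBind. A further deposited table holds their comparisons by DESeq2 (p-value, log2 fold change and Wald score columns, made by the authors), of which only gene names were used, and a peak table of such comparisons was not used. The 7 genes, the related gene lists and the tests were chosen with earlier results of these data known.

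RNA values were fitted as log2(value + 1) with limma 3.58.1 (trend and robust) in R 4.3.3 over 7 levels, with the 6 controls pooled, after a filter at a mean of 10, which kept 16209 of 26709 genes. Plaur and Timp1 were fitted without it over 26618 genes. ATAC counts were fitted with edgeR 4.0.16 (quasi-likelihood, LOESS offsets) over 56383 of 58177 peaks with a mean of at least 10. P-values were adjusted by Benjamini-Hochberg over all features, with 0.1 as threshold. Both fits were tested on simulated data. Alternatives were edgeR and DESeq2 1.42.0 on the recovered reads, other scalings, no filter, controls of the same time, and leaving out each library. edgeR without the filter was added after the data were seen, because Plaur and Timp1 fell under it. Peaks within 50 kb of a gene start or in the gene were assigned to it. Gene positions, exon lengths and exon overlaps came from GENCODE M21, a later release than the M16 on which the authors aligned the reads. Named genes were the 7 members, Serpine2, Serpini1, Mmp9 and Timp4 where tested, and at most 10 further list genes called against the controls with at least a 2-fold change, besides the peak nearest each start and the called peak of largest change, and the 3 genes most correlated with each member whose group means spanned at least 1 log2 unit. The Adamts1 peaks at +1.9 and +23.1 kb, Plg, Serpinf2 and Reck were named after their values were seen, as was Mmp9, which the rule names only where tested and which did not pass the filter. A gene of these lists is not reported here.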

Additional observations from a re-analysis of the deposited data

Results flagged for a closer look

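Among the control libraries, 1 sample stood far from the other 5 for 1 of the 7 genes and 2 of the 27 peaks examined, and chance gives about 1 in 20 such groups. The gap to the nearest library, as a share of the whole range, was 0.653 for Plaur RNA, 0.684 for the peak at chr16:85805668-85805910 near Adamts1 and 0.718 for the peak at chrX:20848162-20848860 near Timp1, against a limit of 0.625 for 6 samples.

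The effects of the 2 stimuli differed by a direct test. On the log2 scale and in the order of 1, 6 and 10 h, BDNF minus KCl came to 1.42, -0.51 and -0.42 for Plat. Adamts1 gave 0.49, -1.11 and -1.76, and Timp2 -0.23 at 1 h. Peaks differed at chr16:85756157-85756590 near Adamts1 at 1 h (1.58), at chr16:85800721-85801681 in Adamts1 at 6 h (0.53) and at chr7:24449127-24449426 near Plaur at 10 h (2.24).

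Effects also differed between times of the same stimulus. From 1 to 6 h of BDNF, Adamts1 changed by -1.13 and Plat by -1.56 on the log2 scale. From 1 to 6 h of KCl, Adamts1 changed by 0.47, Plat by 0.37 and Timp2 by -0.15.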

How the results depend on the processing

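Of 18 calls of the 7 genes against the controls, 9 held under every setting tried, as did 4 of 8 calls between BDNF and KCl, 2 of 5 between times, 6 of 16 peak calls against the controls and 1 of 3 between the stimuli, and 0 calls reversed. Other settings moved the counts of called genes from 0 to 1 at 6 h of BDNF (no filter, edgeR without the filter, controls of the same time), from 1 to 2 at 10 h of BDNF (no filter, with limma or edgeR) and from 3 to 0 from 1 to 6 h of KCl (edgeR without the filter). With peaks within 20 kb, the counts of called peaks became 3 and 2 at 1 and 6 h of BDNF, 1 and 0 at 1 and 10 h of KCl, and 0 for BDNF against KCl at 1 h, where fewer peaks are tested. Against controls of the same time they became 0 at 10 h of BDNF and 0 at 10 h of KCl. limma gave 1 at 1 h and 2 at 6 h of KCl. TMM gave 2 and 3 at 6 and 10 h of KCl, DESeq2 size factors in edgeR 1 and 5, and DESeq2 1 and 4. BDNF against KCl gave 2 at 1 h with DESeq2 size factors, and at 10 h 2 with TMM or those factors and 0 with DESeq2 or limma. The cause was not tested.

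Without single libraries, the counts of called genes ranged from 0 to 1 at 6 h and from 0 to 1 at 10 h of BDNF, from 1 to 3 at 1 and 10 h of KCl, from 1 to 2 for BDNF against KCl at 6 and 10 h and for KCl 6 against 1 h, and from 0 to 1 for KCl 10 against 6 h. Those of peaks ranged from 3 to 6, 2 to 5 and 1 to 4 at 1, 6 and 10 h of BDNF, and from 1 to 3, 0 to 2 and 1 to 2 for KCl. They were 0 for BDNF against KCl at 6 h and 0 at 10 h.

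Uncalled values changed sign. Against controls of the same time, Plau became 0.11 at 1 h of BDNF and -0.036 at 6 h of KCl. The Plaur peak at -13.2 kb became -0.042 at 6 h of KCl with limma, and at 10 h 0.067 with TMM, 0.025 with DESeq2 size factors and 0.025 with DESeq2. The Plat promoter peak at 10 h of KCl became -0.081 with TMM, -0.12 with DESeq2 size factors or DESeq2 and -0.062 against controls of the same time. Without single libraries, Plau at 1 h of BDNF ranged from -1.04 to 0.29, Plat at 10 h of BDNF from -0.080 to 0.044, Timp3 at 1 h of KCl from -0.22 to 0.50, and Plaur in BDNF against KCl at 1 h from -0.98 to 0.51. The Adamts1 peak at +46.7 kb ranged from -0.091 to 0.17 at 1 h of KCl, the Plaur peak from -0.89 to 0.42 and from -0.77 to 0.075 at 6 and 10 h of KCl, and the Plat peak from -0.032 to 0.17 at 10 h of KCl.

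No paired analysis was possible because the letters of the RNA columns are in no label and those of the ATAC libraries follow table order. With 2 libraries per stimulated group and few reads for Plaur, Plau, Timp1 and the Plaur and Timp1 peaks, small changes could not be detected. A library left alone in its group was assumed to vary like the other groups.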
